A study of Mus musculus with 8 samples.

Results

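The circadian clock genes examined here are the 10 mouse genes Arntl, Clock, Per1, Per2, Per3, Cry1, Cry2, Nr1d1, Nr1d2 and Dbp, taken by symbol from the Ensembl genes of the deposited tables. All 10 were found among the 23318 genes measured. The RNA came from epithelium of the mouse small intestine, sorted by flow cytometry on CD24, a surface glycoprotein, in a study of 5-hydroxymethylcytosine in intestinal differentiation. Before the comparison all cells had been depleted of those carrying the leukocyte antigen CD45 and of those binding the Ulex europaeus lectin. The groups are 4 CD24Mid libraries (called CD24low in the manuscript the submitters cite), with title numbers 1, 3, 5 and 7, and 4 CD24Neg libraries, with title numbers 2, 4, 6 and 8. The series design calls them biological replicates. The labels used here state no time of day, no strain, sex or age of the mice, no genotype or treatment, and no tie between any CD24Mid and CD24Neg library.

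The mammalian clock is a transcriptional feedback loop that runs in most cells, the intestinal epithelium included. CLOCK and BMAL1, the product of Arntl, pair and bind E-box elements in the genes of their own repressors, the PER and CRY proteins, and in Nr1d1, Nr1d2 and Dbp. REV-ERBα and REV-ERBβ, encoded by Nr1d1 and Nr1d2, repress Arntl through ROR elements, and DBP activates genes that carry D-box elements, so that Arntl transcripts normally peak at a different time of day from those of Dbp and the REV-ERB genes. In the gut the clock is known for daily rhythms of nutrient uptake, motility and cell division.

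These 3 elements were looked for in the RefSeq promoter windows of the GRCm38.p6 assembly, in the 250 bases before each start, on both strands. There were 13 windows, for 9 of the 10 genes, Per2 not among them, since a gene can have several starts. The E-box CACGTG was in 2 of the 13 windows (Cry1 and 1 of the 2 Per1 windows) and in 6.02% of all 32851 windows. The D-box TTATGTAA or TTACGTAA was in 1 of the 13 (Per3) and in 0.931% of all windows. The ROR element core TAGGTCA or TGGGTCA was in 0 of the 13 and in 5.38% of all windows. The 3 windows with a match are shown 5′ to 3′ on the strand of the gene, with the matching letters in capitals, because they are the windows of these genes that hold an element of the loop. Of these genes, Per1 and Per3 were lower in CD24Neg and Cry1 was not called, as given below.
Per1, chr11:69098699-69098948, plus strand: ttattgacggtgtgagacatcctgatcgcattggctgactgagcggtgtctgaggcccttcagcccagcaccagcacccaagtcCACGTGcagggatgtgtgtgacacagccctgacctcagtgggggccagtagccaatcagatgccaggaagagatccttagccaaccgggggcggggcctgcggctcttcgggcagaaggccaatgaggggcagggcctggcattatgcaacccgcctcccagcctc
Cry1, chr10:85185055-85185304, minus strand: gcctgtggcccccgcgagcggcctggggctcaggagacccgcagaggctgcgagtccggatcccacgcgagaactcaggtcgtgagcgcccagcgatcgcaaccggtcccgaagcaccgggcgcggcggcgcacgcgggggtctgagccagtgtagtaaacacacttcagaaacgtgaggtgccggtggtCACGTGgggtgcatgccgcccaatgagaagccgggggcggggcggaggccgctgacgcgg
Per3, chr4:151044666-151044915, minus strand: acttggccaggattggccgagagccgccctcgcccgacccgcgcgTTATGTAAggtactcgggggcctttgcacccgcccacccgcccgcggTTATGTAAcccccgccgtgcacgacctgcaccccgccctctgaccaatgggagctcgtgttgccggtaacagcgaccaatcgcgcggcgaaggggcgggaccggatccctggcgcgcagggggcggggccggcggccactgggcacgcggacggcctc
The Per3 window held 2 copies of TTATGTAA, the first base of which lies 205 and 158 bases before the start. The E-box began 166 bases before the start in Per1 and 60 bases before it in Cry1. A match is a run of letters, not a shown binding site. A window without a match does not show that the gene lacks the element, since only these letters within 250 bases were searched.

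Values below are the deposited normalised expression values, which are not divided by gene length, as mean ± SD with n = 4 libraries per fraction. Fold changes are CD24Neg minus CD24Mid on the scale of log2(value + 0.5), with adjusted p-values from limma over 12906 tested genes. The estimated depth was 17.5 to 19.6 M reads for CD24Mid and 12.4 to 20.7 M for CD24Neg. Without mitochondrially encoded transcripts it was 15.9 to 18.0 M for CD24Mid and 8.00 to 14.7 M for CD24Neg, without overlap. Mitochondrially encoded transcripts took 28.3% to 37.4% of the summed values in CD24Neg against 8.03% to 9.10% in CD24Mid. Cd24a, the sorted gene, ranged from 2246 to 3693 in the CD24Mid libraries and from 287.0 to 563 in the CD24Neg libraries. The summed stem cell markers were at 44649 to 58702 in CD24Mid against 1794 to 5258 in CD24Neg, and the summed enterocyte markers at 16593 to 25287 against 284663 to 512262. Goblet cell markers summed to 19201 to 36442 against 99920 to 265735, and plasma and B cell markers to 2856 to 7414 against 173 to 399. Enteroendocrine markers summed to 3149 to 7191 against 495 to 951, while the sums of Paneth and of tuft cell markers overlapped between the fractions. The stem cell sum was mostly Olfm4, and the plasma and B cell sum mostly Jchain. The 5 leukocyte markers summed to 89.4 to 262 against 405 to 6232, with the highest sums in CD24Neg libraries 2 and 8. Without those 2 libraries, a setting added after the data were seen, the same 5 clock genes were called in the same directions. CD24Neg libraries 4 and 6, kept in that setting, had leukocyte sums of 405 and 1076, above those of CD24Mid. That setting therefore cannot decide the part of leukocytes. The part of cell composition in the results below was not tested. In bulk RNA, a smaller number of cells of a type and less RNA per cell cannot be told apart.

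The clock genes did not move in one direction between the fractions. Nr1d1, Cry2 and Arntl were higher in CD24Neg, Per3 and Per1 were lower, and Clock, Per2, Cry1, Nr1d2 and Dbp did not pass the test. Thus 3 of 10 members were called higher, where 34.0% of all tested genes were, and 2 of 10 lower, where 34.3% were. Calls in either direction made up 68.3% of all tested genes, so a call as such does not set these genes apart. The members' median log2 fold change was 0.40 beside -0.02 over all tested genes. It was 0.22 without CD24Mid library 1, and it was -0.02 beside -0.44 over all tested genes when libraries were scaled to totals after removal of the 20 top genes. Fully separate CD24Mid and CD24Neg values were seen for 4 of the 10 genes (Nr1d1, Cry2, Arntl and Per3), beside 63.8% of all tested genes.

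**Figure D1:**
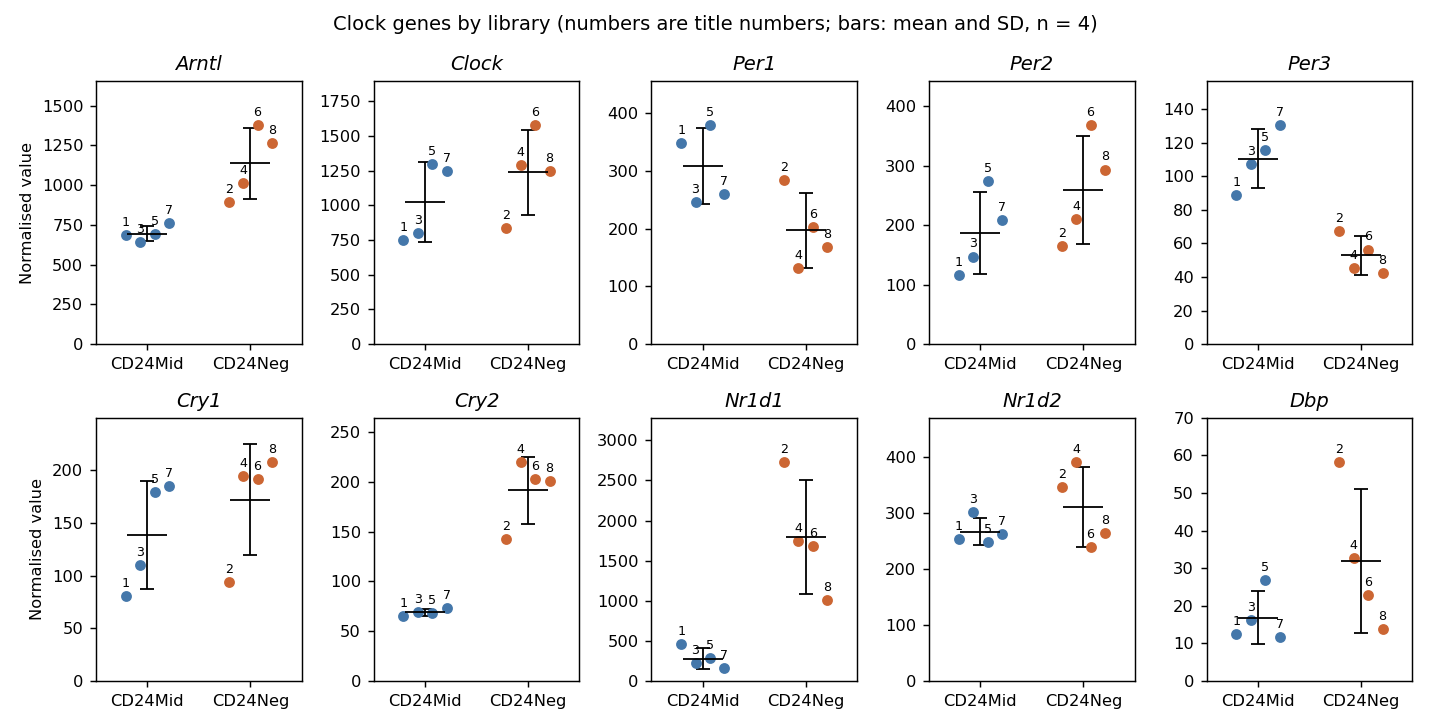
Normalised value (vertical axis, linear, from 0) of each clock gene in the 4 CD24Mid libraries (blue) and 4 CD24Neg libraries (orange), with title numbers beside the points and bars for mean and SD. Nr1d1, Cry2 and Arntl lie higher and Per3 lower in CD24Neg without overlap, while Clock, Per2, Cry1, Nr1d2, Dbp and Per1 overlap.

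Among the activators, Arntl had values of 683, 643, 695 and 762 in CD24Mid libraries 1, 3, 5 and 7. It had 894, 1013, 1378 and 1267 in CD24Neg libraries 2, 4, 6 and 8. Each CD24Neg library was therefore above each CD24Mid library, with means of 696 ± 49.5 and 1138 ± 223 (log2 fold change 0.69, SE 0.14, adjusted p = 0.00142). Under the scaling to totals, the Arntl change was 0.26 and was not called (adjusted p = 0.103). Clock, the partner of Arntl, had 751, 797, 1294 and 1247 in CD24Mid and 835, 1287, 1579 and 1247 in CD24Neg. The fractions overlapped in part and the difference did not pass (log2 fold change 0.28, 95% interval -0.24 to 0.80, adjusted p = 0.301).

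Of the Period genes, which encode repressors of CLOCK and BMAL1, Per3 and Per1 were called lower and Per2 was not called. Per3 had 88.6, 107, 116 and 131 in CD24Mid and 67.5, 45.2, 56.4 and 42.4 in CD24Neg. It was lower in all 4 CD24Neg libraries, by 2.10-fold (log2 fold change -1.07, SE 0.21, adjusted p = 0.0011). Per1, the Period gene known to respond acutely to stimuli, had 349, 246, 380 and 260 in CD24Mid and 284, 133, 203 and 169 in CD24Neg. CD24Neg library 2 lay above CD24Mid libraries 3 and 7, so the fractions overlapped, and the difference of -0.68 (SE 0.24) passed narrowly (adjusted p = 0.0266). Removing any one of libraries 1, 4, 5 and 8 ended the Per1 call (adjusted p = 0.0651 to 0.074), as did a fit without the filter on low values (0.084) and one under quantile normalization (0.0709). Per2 had 117, 147, 273 and 208 in CD24Mid and 165, 210, 368 and 293 in CD24Neg. Its spread within a fraction, 2.34-fold in CD24Mid and 2.24-fold in CD24Neg from lowest to highest library, and the difference between fractions did not pass (log2 fold change 0.48, 95% interval -0.20 to 1.17, adjusted p = 0.185). That spread was shared by libraries with adjacent title numbers. A fit with those numbers as a block, which the labels do not give, was added after the data were seen. In it Per2 was called higher (adjusted p = 0.00332), as described below.

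The Cryptochrome genes encode the other repressors of the loop. Cry2 had 65.0, 68.8, 68.2 and 73.6 in CD24Mid and 143, 220.5, 203 and 201 in CD24Neg. It had a narrow range in CD24Mid and was 2.73-fold higher in CD24Neg (log2 fold change 1.45, SE 0.17, adjusted p = 3.07e-05). Cry1 had 80.5, 110, 179 and 185 in CD24Mid and 93.6, 194, 192 and 208 in CD24Neg. Library 1 in CD24Mid and library 2 in CD24Neg were the lowest of their fractions, and the fractions did not differ by more than this spread (log2 fold change 0.33, 95% interval -0.41 to 1.06, adjusted p = 0.399). Cry2 and Cry1 thus had different results, but the difference between their changes was not tested. Cry2 shares 295 exon bases, 4.67% of its own, with D930015M05Rik on the opposite strand, which had values of at most 4.00. Arntl shares 33 exon bases, 0.439% of its own, with Gm45355, which was not analysed here.

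Of the REV-ERB genes, Nr1d1 showed the largest change of the 10. Its values were 461, 218.5, 281 and 157 in CD24Mid and 2735, 1750, 1683 and 1006 in CD24Neg. All CD24Neg libraries exceeded all CD24Mid libraries, with a 6.52-fold difference (log2 fold change 2.71, SE 0.35, adjusted p = 7.21e-05). Exons of Nr1d1 overlap Thra, the thyroid hormone receptor alpha gene on the opposite strand, over 263 bases, 8.55% of the exon bases of Nr1d1 in GENCODE M21. No source used here says whether the authors' estimates used strand, so reads from the shared stretch may not be separable. Thra itself was at 1474 ± 183 in CD24Mid and 2307 ± 330 in CD24Neg, a log2 fold change of 0.64 (adjusted p = 0.00154). Nr1d2, the second REV-ERB gene, had 254, 301, 249 and 263 in CD24Mid and 347, 392, 239 and 264 in CD24Neg. The difference was 0.20 (95% interval -0.17 to 0.56, adjusted p = 0.314).

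Dbp, the output factor of the loop, had few reads and the largest residual SD of the 10 genes. It had 12.6, 16.3, 26.9 and 11.6 in CD24Mid and 58.4, 32.7, 22.9 and 13.9 in CD24Neg. These values rest on an estimated 18.1 to 44.6 reads in CD24Mid and 8.89 to 32.5 in CD24Neg, and the fractions overlapped (log2 fold change 0.79, 95% interval -0.23 to 1.81, adjusted p = 0.148). Without CD24Neg library 8 the change was 1.13 and passed (adjusted p = 0.0418), while without CD24Neg library 2 it was 0.46 (0.359) and under the scaling to totals 0.38 (0.483). Dbp overlaps Sphk2, a sphingosine kinase gene on the opposite strand, over 539 bases, 18.0% of its exon bases. Sphk2 was at 1048 ± 126 in CD24Mid and 2495 ± 237 in CD24Neg, and its part in the Dbp values was not tested.

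**Figure D2:**
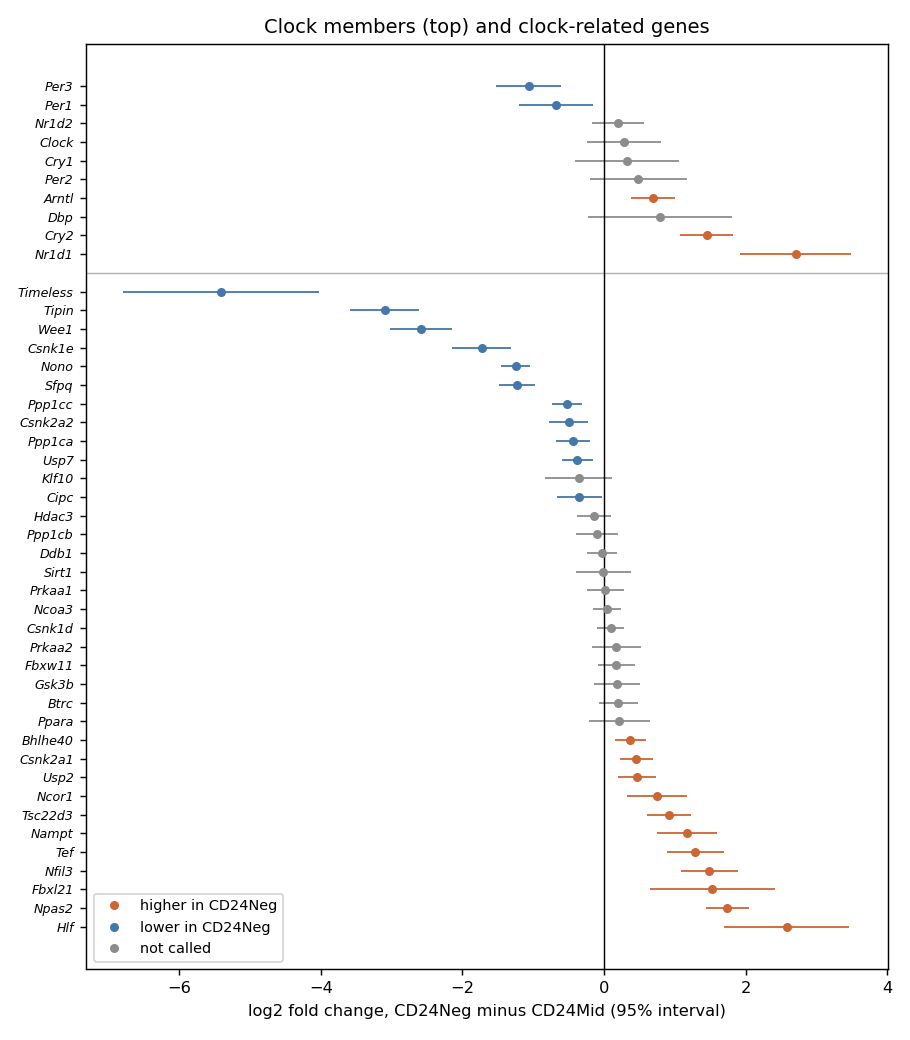
Log2 fold change, CD24Neg minus CD24Mid (horizontal axis), with 95% interval for the 10 clock genes (above the line) and clock-related genes (below), in orange where higher, blue where lower and grey where not called. Among the clock genes Nr1d1 lies farthest to the right at 2.71 and Per3 farthest to the left at -1.07.

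Levels were compared between genes only after division by the length of the exon union, as normalised value per kb. In CD24Mid, Arntl (92.5 ± 6.58 per kb), Nr1d1 (90.8 ± 42.7) and Clock (74.5 ± 20.96) stood highest, and each overlapped the next gene in the order. Per1, Nr1d2, Cry1 and Per2 followed at 54.8, 49.3, 41.5 and 31.8 per kb, again with overlap between neighbours. Per3 (11.5 ± 1.82), Cry2 (10.9 ± 0.565) and Dbp (5.63 ± 2.34) were lowest, below Per2 without overlap. In CD24Neg, Nr1d1 (583 ± 231 per kb) lay above Arntl (151 ± 29.7), and Arntl above Clock (90.1 ± 22.3), in each case without overlap. Cry2 stood at 30.3 ± 5.36 per kb there, above Dbp at 10.7 ± 6.41 without overlap, and Per3 had the lowest mean at 5.502 ± 1.19, overlapping Dbp. The exon lengths are those of GENCODE M21, a later annotation than the authors' build.

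**Figure D3:**
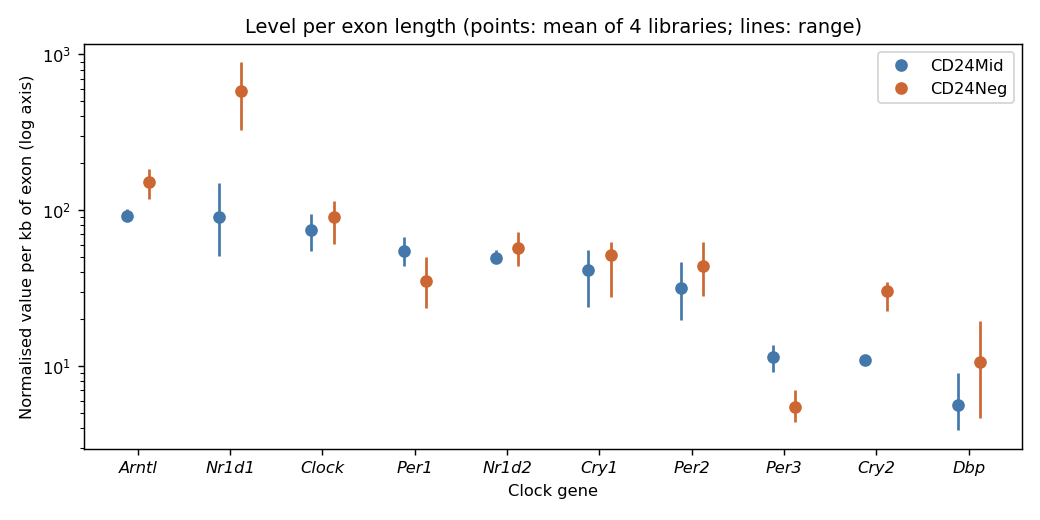
Normalised value per kb of exon (vertical axis, logarithmic) of the 10 clock genes, ordered by their CD24Mid mean, with points for the mean and lines for the range of 4 libraries in CD24Mid (blue) and CD24Neg (orange). Nr1d1 is separated from the other genes in CD24Neg at 583 per kb, but lies beside Arntl in CD24Mid.

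Libraries of the same fraction differed in clock gene levels. The residual SD on the log2 scale was 0.71 for Dbp, 0.62 for Nr1d1, 0.56 for Cry1 and 0.53 for Per2, beside a median of 0.24 over all tested genes. These 4 values lay at the 91.2, 88.8, 86.0 and 84.4 percentile of all tested genes. Cry2 (0.20) and Arntl (0.22) lay at the 39.9 and 43.8 percentile. From lowest to highest library, Nr1d1 ranged 2.94-fold within CD24Mid and 2.72-fold within CD24Neg.

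Deviations from the fraction mean followed a pattern across both fractions. Per2 deviated by -0.60, -0.26, 0.63 and 0.24 (log2) in CD24Mid libraries 1, 3, 5 and 7, and by -0.59, -0.23, 0.57 and 0.25 in CD24Neg libraries 2, 4, 6 and 8. Nr1d1 deviated by 0.83, -0.24, 0.12 and -0.72 in CD24Mid and by 0.70, 0.05, -0.00 and -0.75 in CD24Neg. For both genes a CD24Mid library thus stood close to the CD24Neg library with the next title number. Cry1 was low in libraries 1 and 2, at -0.70 and -0.81, and so was Clock, at -0.40 and -0.53. Dbp did not follow, with -0.33 in library 1 and 1.05 in library 2. Nor did Per3, with -0.30 and 0.37 in libraries 1 and 2 and 0.25 and -0.29 in libraries 7 and 8.

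**Figure D4:**
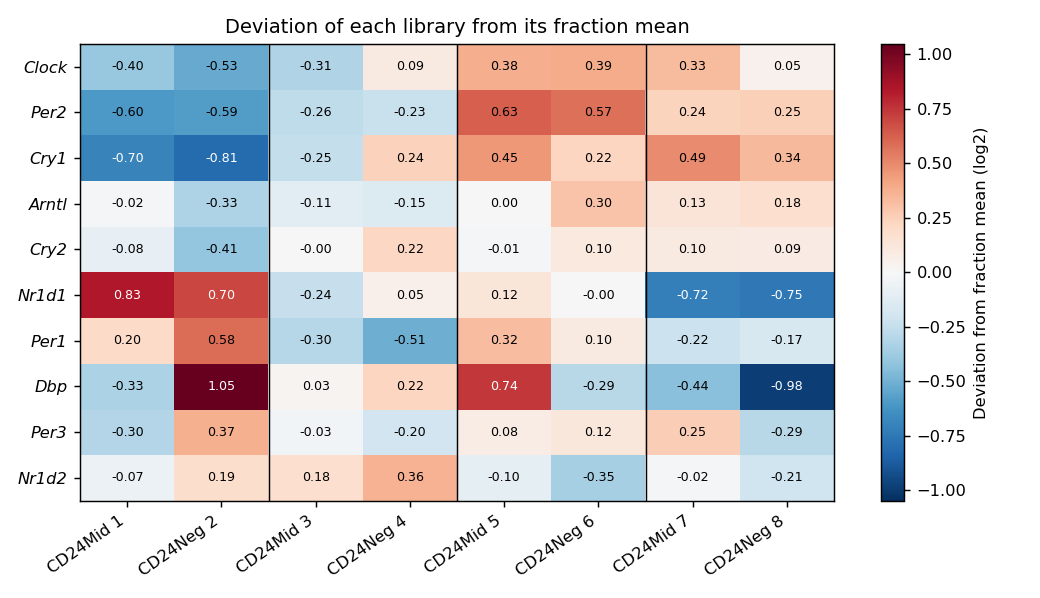
Deviation of each library (columns, in order of title number) from the mean of its fraction on the log2 scale (colour and printed value) for the 10 clock genes (rows), with lines between adjacent title numbers. Clock, Per2 and Cry1 are below their mean in libraries 1 and 2, where Nr1d1 is above it, and Nr1d1 is lowest in libraries 7 and 8.

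The same closeness was present over all 12906 tested genes. The deviations of CD24Mid libraries 1, 3, 5 and 7 correlated across genes with those of CD24Neg libraries 2, 4, 6 and 8, in that order, with r from 0.28 to 0.33, and the other 12 combinations gave r from -0.26 to 0.03. Over the 10 clock genes alone the separation was not clean. There r was 0.23 to 0.85 for adjacent numbers and -0.84 to 0.58 for the other 12 combinations. The 0.58 was that of CD24Mid library 7 with CD24Neg library 6. Genes are not independent replicates, and the labels do not say that adjacent numbers mark a shared mouse or day. A fit with these adjacent numbers as a block was added after the data were seen. In it Per2 was called higher in CD24Neg (log2 fold change 0.48, SE 0.10, adjusted p = 0.00332), with differences of 0.50, 0.51, 0.43 and 0.49 between adjacent libraries. The Nr1d1 differences were 2.57, 2.999, 2.58 and 2.68, and its adjusted p was 1.97e-06. Per1 was lower in CD24Neg in each of the 4 differences (adjusted p = 0.00191). Clock (adjusted p = 0.0573), Cry1 (0.095), Nr1d2 (0.179) and Dbp (0.124) were not called there either.

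**Figure D5:**
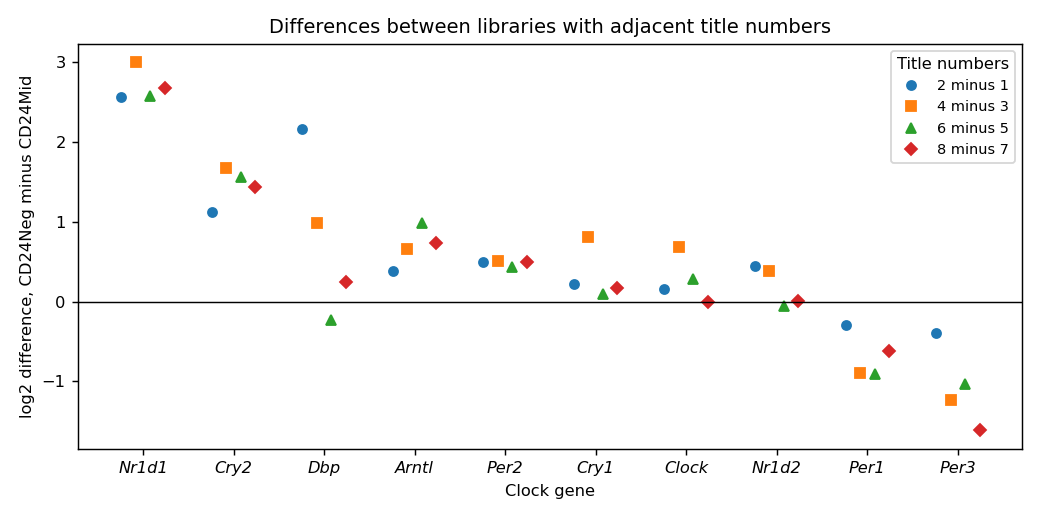
Log2 difference between each CD24Neg library and the CD24Mid library with the preceding title number (vertical axis) for the 10 clock genes (horizontal axis), with a symbol for each of the 4 pairs of numbers. The 4 symbols nearly coincide for Per2, between 0.43 and 0.51, and spread from -0.23 to 2.17 for Dbp.

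Co-variation was measured against Arntl over the 8 libraries, with fraction means removed. Among 9 genes, Clock, Per2, Cry1 and Cry2 had positive and Per1, Per3, Nr1d1, Nr1d2 and Dbp negative correlations with Arntl. Arntl itself deviated by -0.11 to 0.13 in CD24Mid and by -0.33 to 0.30 in CD24Neg. Its part in each r therefore rests mostly on the CD24Neg libraries. Nr1d2 gave the largest r in size, but not the smallest p, with Pearson r = -0.85 (exact permutation p = 0.104, adjusted 0.188) and Spearman rho = -0.90 (exact permutation p = 0.118, adjusted 0.25). Clock had the smallest Pearson p, with r = 0.72 (exact permutation p = 0.033, adjusted 0.188) and rho = 0.69 (exact permutation p = 0.0938, adjusted 0.25). Dbp gave r = -0.75 (exact permutation p = 0.0972, adjusted 0.188) and rho = -0.69 (exact permutation p = 0.139, adjusted 0.25). Per2 gave r = 0.76 (exact permutation p = 0.0417, adjusted 0.188) and rho = 0.69 (exact permutation p = 0.0556, adjusted 0.25). Without the 2 libraries farthest from the median of Arntl, CD24Neg libraries 2 and 6, r was -0.86 for Nr1d2, -0.69 for Dbp and 0.53 for Per2. Without CD24Neg library 2 the sign turned for Per1 (r = 0.54), Per3 (0.52) and Cry2 (-0.28). None of the 9 pairs passed after adjustment in Pearson's or Spearman's test, and before it 2 pairs (Clock and Per2) had a Pearson p under 0.05 and 0 a Spearman p. These two-sided tests permute libraries within fractions and take the 8 libraries as independent, which the closeness of adjacent numbers puts in doubt.

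Over all 45 pairs of the 10 genes, a count added after the data were seen, 21 correlations were positive and 24 negative. Clock and Per2 had the smallest p, with r = 0.92 (exact permutation p = 0.00868) and rho = 0.88 (exact permutation p = 0.0104). After adjustment over the 45 pairs no pair passed, the smallest adjusted p being 0.247 for Pearson and 0.469 for Spearman. Without adjustment 7 pairs had a Pearson p and 2 a Spearman p under 0.05. The r of Clock and Per2 was 0.83 without the 2 libraries farthest from the median of Clock.

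The tested genes outside the clock lists most like the mean standardised deviation of Nr1d1, Nr1d2, Dbp and Per3 over the 8 libraries were Ctc1 (r = 0.98), Rabepk (0.98), Ppp1r13b (0.97), Fgfr2 (0.96), Lmbr1 (0.95) and Ints14 (0.94). Those most opposite were Sco2 (-0.97), Dusp19 (-0.96), Ccnh (-0.95), Gm14735 (-0.95), Tubgcp3 (-0.94) and Vrk1 (-0.94). They are the extremes of 9573 genes, so r of this size is a description of these 8 libraries only. Within the score, Dbp, which had few reads, followed it most closely (r = 0.94). Nr1d1 (0.66), Nr1d2 (0.63) and Per3 (0.59) did so less, and correlated only weakly with each other (r from 0.05 to 0.22). The score itself was highest in CD24Neg library 2 (1.27) and lowest in CD24Neg library 8 (-1.21), the fraction with the wider range. In CD24Mid it ran from -0.25 to 0.31, so r with the score rests mostly on the CD24Neg libraries for every gene listed. Sco2 had values of 6.18e-05 to 9.22e-05 in CD24Mid, so its deviations come from the CD24Neg libraries.

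Of 42 further clock-related genes, 37 passed the filter on low values, of which 13 were higher and 11 lower in CD24Neg and 13 were not called. Over all tested genes 34.0% were higher and 34.3% lower, so these shares lie near the background. Their median log2 fold change was 0.09. Under the scaling to totals, 9 were higher and 20 lower, beside 2842 and 6497 of all 12906 tested genes. Npas2, which can take the place of Clock as the partner of BMAL1, rose from 287 ± 20.4 in CD24Mid to 970 ± 173 in CD24Neg (log2 fold change 1.74, adjusted p = 2.23e-06). The ROR genes Rora (0 to 12.6) and Rorb (1.14 to 4.28) were too low to be tested.

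All 3 other D-box factors were higher in CD24Neg, as were 34.0% of all tested genes. Tef and Hlf, the relatives of Dbp, rose from 103 ± 16.7 to 253 ± 47.8 and from 9.16 ± 3.54 to 58.0 ± 26.2 (adjusted p = 0.000119 and 0.000228). Hlf was at 5.16 to 12.9 in CD24Mid, around the filter value of 10, and met the filter only through CD24Neg, where it was higher. Its fold change and p-value are therefore limited by these low values. Nfil3, the D-box repressor, rose from 320 ± 68.2 to 898 ± 183 (adjusted p = 4.69e-05). Of the 4 E-box repressors, Bhlhe40 rose (1089 ± 57.7 against 1415 ± 140, adjusted p = 0.0061) and Cipc fell (458 ± 42.0 against 363 ± 70.0, adjusted p = 0.0493). The Cipc call passed only narrowly and its fractions overlapped. CD24Neg library 2, at 463, lay above CD24Mid libraries 3 (432) and 7 (418). Bhlhe41 (2.56 to 11.03 in CD24Mid, 0 to 1.18 in CD24Neg) and Ciart (8.06 to 13.1 and 0 to 20.4) were too low to be tested.

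Among 10 kinases and phosphatases that act on PER and CRY, 1 was higher and 4 were lower, beside 34.0% and 34.3% of all tested genes. Csnk1e, casein kinase 1 epsilon, fell from 287 ± 49.6 to 86.8 ± 17.0 (log2 fold change -1.73, adjusted p = 2.14e-05). Ppp1cc, a phosphatase catalytic subunit gene, was 1.44-fold lower and Csnk2a2 1.42-fold lower, while Csnk2a1, which encodes the other catalytic subunit of casein kinase 2, was 1.37-fold higher. Of 7 ubiquitin ligases and deubiquitinases, 3 were higher and 1 lower, beside the same shares of all tested genes. Fbxl21, which encodes an F-box protein that binds CRY proteins, rose from 14.5 ± 6.13 to 43.6 ± 18.7 (adjusted p = 0.00605). Its values were low, at 9.60 to 23.4 in CD24Mid and 27.2 to 61.3 in CD24Neg, so depth limits their precision.

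Of 8 partners and corepressors, 4 were lower and 1 was higher, beside 34.3% and 34.0% of all tested genes. Timeless and Tipin, which are known for replication fork protection as well as for the clock, fell from 507 ± 34.2 to 19.1 ± 24.7 and from 332 ± 37.0 to 39.4 ± 11.6 (adjusted p = 3.01e-05 and 1.30e-06). The CD24Neg mean of Timeless rests on library 8, at 56.1, with the other 3 libraries at 4.57 to 8.97. The RNA binding genes Nono and Sfpq were 2.37-fold and 2.35-fold lower (adjusted p = 1.63e-06 and 6.74e-06). Among 5 output genes, Nampt (550 ± 110 against 1246 ± 285) and Tsc22d3 (670 ± 62.1 against 1283 ± 259) rose. Wee1, a mitotic entry kinase gene, fell from 309 ± 52.8 to 51.6 ± 11.04 (adjusted p = 2.03e-06). The proliferation markers fell along with Timeless, Tipin and Wee1, with sums of 14340 to 23709 against 1172 to 3623, and their part in these changes was not tested.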

How the data were processed

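Total RNA of the sorted cells was made into libraries by a TruSeq kit, per the labels' protocols. The deposited signal values are gene-level estimates already scaled between libraries, 1 per Ensembl gene, per the file headers and from the values. Bowtie 0.12.8 and build NCBIM37 are named in the submitters' processing notes. The version of the estimation tool, the annotation release, the scaling tool and the strand setting: not given in the sources used here. Low values lie on even steps whatever the gene length (0.584 to 0.696 for CD24Mid libraries, 1.07 to 1.79 for CD24Neg libraries), and total divided by step gave the estimated depth if 1 step is 1 read. Whole reads could not be restored, so no count model was used.

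The filter asked for 4 or more libraries at 10 or above. Libraries were then aligned by their median ratio. In limma 3.58.1 under R 4.3.3, log2(value + 0.5) was modelled by fraction alone with trend and robust variance, Benjamini-Hochberg adjustment and a threshold of 0.05. The fit was tested on simulated data. A fold change on this scale understates low genes. Correlations used exact permutations within fractions (576 arrangements) and scipy 1.17.1. Symbols came from GENCODE M21 by Ensembl identifier (21223 of 23318 matched), promoters from RefSeq. Named were all members, in the clock-related list at most 4 per role by adjusted p plus 9 genes whatever their result, the 6 genes most like and the 6 most opposite to a score with a mean value of at least 100, and genes that overlap a member. Some clock-related genes are counted but not reported here by name. The members and lists were chosen with earlier results of these data known. The limma p-values set the difference between fractions against the spread between these libraries. Except in the block fit, they take the libraries as independent, which the closeness of adjacent numbers puts in doubt. Alternatives were other pseudocounts, filters and scalings, no trend, a test against a 1.5-fold change, leaving out each library, and, added after the data were seen, a block on adjacent title numbers and leaving out CD24Neg libraries 2 and 8.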

Additional observations from a re-analysis of the deposited data

Results flagged for a closer look

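In each fraction the highest and lowest library of each clock gene were compared with the rest of their group by Dixon's ratio, in 20 groups of 4 libraries. Cry1 in CD24Neg library 2, at 93.6, stood apart from the other 3 CD24Neg libraries at 192 to 208. Its gap to the nearest was 0.858 of the range, above Dixon's 95% critical value for 4 samples. Chance alone would mark about 1 in 20 groups.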

How the results depend on the processing

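The Nr1d1 and Cry2 calls held in all 19 alternatives, Nr1d1 with a log2 fold change from 2.28 to 2.98 and Cry2 with one from 1.03 to 1.69. Per3 lost its call against a 1.5-fold change (adjusted p = 0.0573), and Arntl lost it there (0.459) and under scaling to totals (0.103). Per1 lost its call without the filter on low values (0.084), under quantile normalization (0.0709), against a 1.5-fold change (0.642) and without CD24Mid library 1 or 5 or CD24Neg library 4 or 8. The 2 lower clock genes thus became 1 without the filter, 1 under quantile normalization, 0 against a 1.5-fold change, and 1 to 2 with a library left out. Signs turned, without a call, for Clock under quantile normalization (-0.00093) and, under scaling to totals, for Clock (-0.14), Cry1 (-0.10) and Nr1d2 (-0.23). That scaling gave 20 lower clock-related genes in place of 11 and, over all tested genes, 2842 higher in place of 4386 and 6497 lower in place of 4424 (30.4% of calls higher in place of 49.8%). Against a 1.5-fold change, 8 clock-related genes were higher and 6 lower, and 2360 and 2430 of all tested genes. With a library left out, r with Arntl ran from -0.57 to 0.54 for Per1, from -0.43 to 0.52 for Per3 and from -0.28 to 0.95 for Cry2, turning sign without CD24Neg library 2 in each and also without CD24Neg library 8 for Per3 (0.013). In all 13 alternatives run for co-variation, 0 of 9 pairs passed. The causes were not tested.

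The labels pair no libraries, and the fractions share no replicate numbers in them. The replicate block on adjacent title numbers, added after the data were seen, brought the call of Per2 (adjusted p = 0.00332) and changed no other call among the 10 clock genes. It gave 4 higher and 2 lower. Depth limits the precision of Dbp (8.89 to 44.6 estimated reads) and of Per3 in CD24Neg (27.0 to 52.8).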
